A study of Mus musculus with 12 samples.

Results

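ER chaperones and genes of the unfolded protein response form a set of 32 genes, picked by symbol as parts of the folding machinery of the endoplasmic reticulum (ER). All 32 were found among the 26748 gene identifiers of the TPM table, and all 32 passed the filter on low values that left 11018 genes for testing. By role the set held 5 chaperones, 5 disulfide isomerases and oxidases, 6 co-chaperones and cofactors, 4 sensors and transcription factors, 7 components of ER-associated degradation and 5 components of the protein entry channel. TPM is a level scaled by transcript length and by the library's total, so the levels of different genes can be compared.

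RNA-seq was run on hepatocytes of male C57bl/6 mice in 4 groups of 3 libraries. The groups were hepatic RXRα knockout mice given bexarotene, hepatic RXRα knockout mice without it, floxed mice given bexarotene, and floxed mice without it. Bexarotene, an agonist of the retinoid X receptors, was given at 100 mg/kg once daily for 5 days. The labels name no vehicle for the control mice, no driver of the recombinase and no age. The labels do not say that the libraries of a group came from separate mice, so the p-values below speak only of sample-to-sample spread, part of which may be technical. Libraries are named by group and by the number in their column heading. The 3 knockout bexarotene libraries differed from each other by little more than counting noise and were counted as 1 sample, and so were floxed control libraries 1 and 3. This left 1 knockout bexarotene sample, 3 knockout control samples, 3 floxed bexarotene samples and 2 floxed control samples, and means below are over these samples. The single knockout bexarotene sample has no SD, and its tests assume that it varies as the other groups do.

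The libraries were of hepatocyte character and the knockout label held. Rxra averaged 26.8 TPM in knockout bexarotene libraries, 30.4 ± 3.18 TPM in knockout controls (SD, n = 3), 82.4 ± 2.87 TPM in floxed bexarotene libraries (SD, n = 3) and 82.9 ± 4.47 TPM in floxed controls (SD, n = 2). The log2 fold change of Rxra was -1.58 ± 0.16 under bexarotene (SE, limma adjusted p = 0.00247) and -1.42 ± 0.13 without it (SE, limma adjusted p = 8.87e-04), from values that cover all exons of the gene. Albumin stood between 32082 and 46053 TPM. TPM keeps no read depth, so the depth is unknown; between 9713 and 10470 genes per library reached 1 TPM. Other cell types were present at low levels and unevenly. The summed level of 11 macrophage markers was 61.7 to 71.1 TPM in knockout bexarotene libraries, 12.7 to 33.1 TPM in knockout controls, 17.2 to 63.1 TPM in floxed bexarotene libraries and 24.9 to 85.6 TPM in floxed controls, and none of these markers was at 0 in all libraries. A clock score was taken as the level of circadian clock genes with an evening peak minus those with a morning peak, on the log2 scale. It was 1.04 to 1.88 in floxed bexarotene libraries, against -1.68 to -1.17 in floxed controls. In knockout bexarotene libraries it was 0.46 to 0.53, against 1.18 and 0.90 in knockout controls 1 and 2 and -1.96 in knockout control 5. The part of the clock score in the results below was not tested.

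Secretory cells fold their exported proteins in the ER, and hepatocytes, which make most plasma proteins, carry a large folding machinery. When unfolded proteins accumulate, the chaperone BiP, encoded by Hspa5, leaves the lumenal domains of the sensors IRE1 (Ern1), PERK (Eif2ak3) and ATF6. IRE1 splices the mRNA of the transcription factor XBP1, PERK slows translation, and cleaved ATF6 enters the nucleus, and together these branches raise the genes for chaperones, disulfide isomerases and ER-associated degradation. In liver, XBP1 is also known as a regulator of lipid synthesis. Gene-level TPM does not separate the spliced from the unspliced form of Xbp1.

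The promoters of 6 members that the results below turn on are shown here. Creld2, Sdf2l1 and Ero1lb had the lowest adjusted p-values of the set, Hspa5 is the textbook target of the response, Xbp1 split the knockout controls, and Herpud1 had the highest fold change with bexarotene in knockout mice. The windows are RefSeq sequences on mouse build GRCm38.p6, from 250 bases before to 50 bases after the start site, and 26 of the 32 members had one. Sec61a1, Derl1, Manf, Ssr2, Hyou1 and Atf6 had none. Each window is printed 5′ to 3′ along the gene's strand, with the 50 bases from the start site on in capitals.
Creld2, chr15:88819396-88819695, plus strand: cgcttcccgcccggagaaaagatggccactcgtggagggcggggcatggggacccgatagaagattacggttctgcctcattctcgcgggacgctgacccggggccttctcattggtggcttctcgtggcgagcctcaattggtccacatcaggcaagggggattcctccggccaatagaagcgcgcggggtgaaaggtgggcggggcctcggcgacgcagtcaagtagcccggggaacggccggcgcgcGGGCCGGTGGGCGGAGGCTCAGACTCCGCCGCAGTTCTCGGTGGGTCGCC
Ero1lb, chr13:12565633-12565932, plus strand: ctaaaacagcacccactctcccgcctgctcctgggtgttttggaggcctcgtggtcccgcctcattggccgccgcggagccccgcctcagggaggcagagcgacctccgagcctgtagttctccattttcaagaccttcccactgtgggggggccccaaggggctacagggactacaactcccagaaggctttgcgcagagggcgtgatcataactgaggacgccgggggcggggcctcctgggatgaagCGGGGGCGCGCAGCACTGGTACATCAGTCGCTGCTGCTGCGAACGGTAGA
Sdf2l1, chr16:17132334-17132633, minus strand: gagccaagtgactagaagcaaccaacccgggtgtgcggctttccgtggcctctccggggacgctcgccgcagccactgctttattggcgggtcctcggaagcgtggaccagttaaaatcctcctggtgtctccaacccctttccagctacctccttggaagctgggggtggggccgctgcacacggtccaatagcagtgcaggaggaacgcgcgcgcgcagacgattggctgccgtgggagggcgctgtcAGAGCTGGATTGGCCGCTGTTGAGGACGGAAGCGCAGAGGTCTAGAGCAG
Hspa5, chr2:34771840-34772139, plus strand: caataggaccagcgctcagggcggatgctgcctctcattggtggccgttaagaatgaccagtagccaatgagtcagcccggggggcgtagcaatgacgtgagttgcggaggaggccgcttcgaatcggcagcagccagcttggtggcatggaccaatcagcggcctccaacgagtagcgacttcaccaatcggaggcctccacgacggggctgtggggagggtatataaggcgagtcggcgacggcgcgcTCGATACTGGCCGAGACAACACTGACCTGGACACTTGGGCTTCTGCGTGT
Xbp1, chr11:5520391-5520690, plus strand: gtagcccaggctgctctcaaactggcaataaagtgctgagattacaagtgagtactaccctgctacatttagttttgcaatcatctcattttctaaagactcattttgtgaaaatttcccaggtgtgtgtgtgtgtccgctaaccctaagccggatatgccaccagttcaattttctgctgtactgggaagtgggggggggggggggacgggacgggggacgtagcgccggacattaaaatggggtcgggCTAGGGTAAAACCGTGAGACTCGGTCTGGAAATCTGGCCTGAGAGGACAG
Herpud1, chr8:94386179-94386478, plus strand: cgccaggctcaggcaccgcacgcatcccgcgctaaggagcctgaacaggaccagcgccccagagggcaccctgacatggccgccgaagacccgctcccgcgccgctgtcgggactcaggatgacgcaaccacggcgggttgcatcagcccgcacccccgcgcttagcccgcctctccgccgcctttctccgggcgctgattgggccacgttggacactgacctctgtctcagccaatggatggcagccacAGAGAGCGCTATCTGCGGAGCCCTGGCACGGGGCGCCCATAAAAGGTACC

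The 27 windows of the members (Derl2 has 2) were rich in GC, with a median of 64.7% and a range of 50.3% to 76.0%, against a median of 52.7% over 32851 promoters. The CpG dinucleotide occurred a median of 25 times per member window, against 7 times over all promoters. Within the set, the windows of Sec61b (50.3% GC) and Xbp1 (51.0% GC, 10 CpG) were the poorest, and those of Edem1 (76.0% GC) and Pdia3 (75.7% GC) the richest. The Creld2 window had 67.7% GC and 33 CpG, and the Hspa5 window 61.3% GC and 25 CpG. These are descriptions of sequence, and their part in the levels below was not tested.

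Median levels over the 12 libraries ranged from 636 TPM for P4hb to 2.18 TPM for Derl3. P4hb, the protein disulfide isomerase PDI, was followed by Calr, the lectin chaperone calreticulin, at 414 TPM and by Herpud1, a membrane component of the degradation complex, at 354 TPM. Hspa5 at 266 TPM and Hsp90b1, the ER form of HSP90, at 210 TPM came next. The sensors stood at the low end, with Atf6 at 10.2 TPM, Ern1 at 8.07 TPM and Eif2ak3 at 2.90 TPM. Of the 31 neighbouring pairs in this order, 28 overlapped in their library ranges. The 3 pairs that did not were Pdia6 above Canx, Ero1lb above Atf6 and Ern1 above Eif2ak3. Calr ranged over the libraries from 372 to 589 TPM and Herpud1 from 261 to 409 TPM. The spread over the 9 samples was smallest for Sel1l, the adaptor of the HRD1 ubiquitin ligase (CV 5.83%), and for Sec61b, a subunit of the translocation channel (CV 6.39%). It was largest for Derl3 (CV 90.8%), Xbp1 (CV 48.7%), Sdf2l1 (CV 36.1%) and Creld2 (CV 31.0%).

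**Figure D1:**
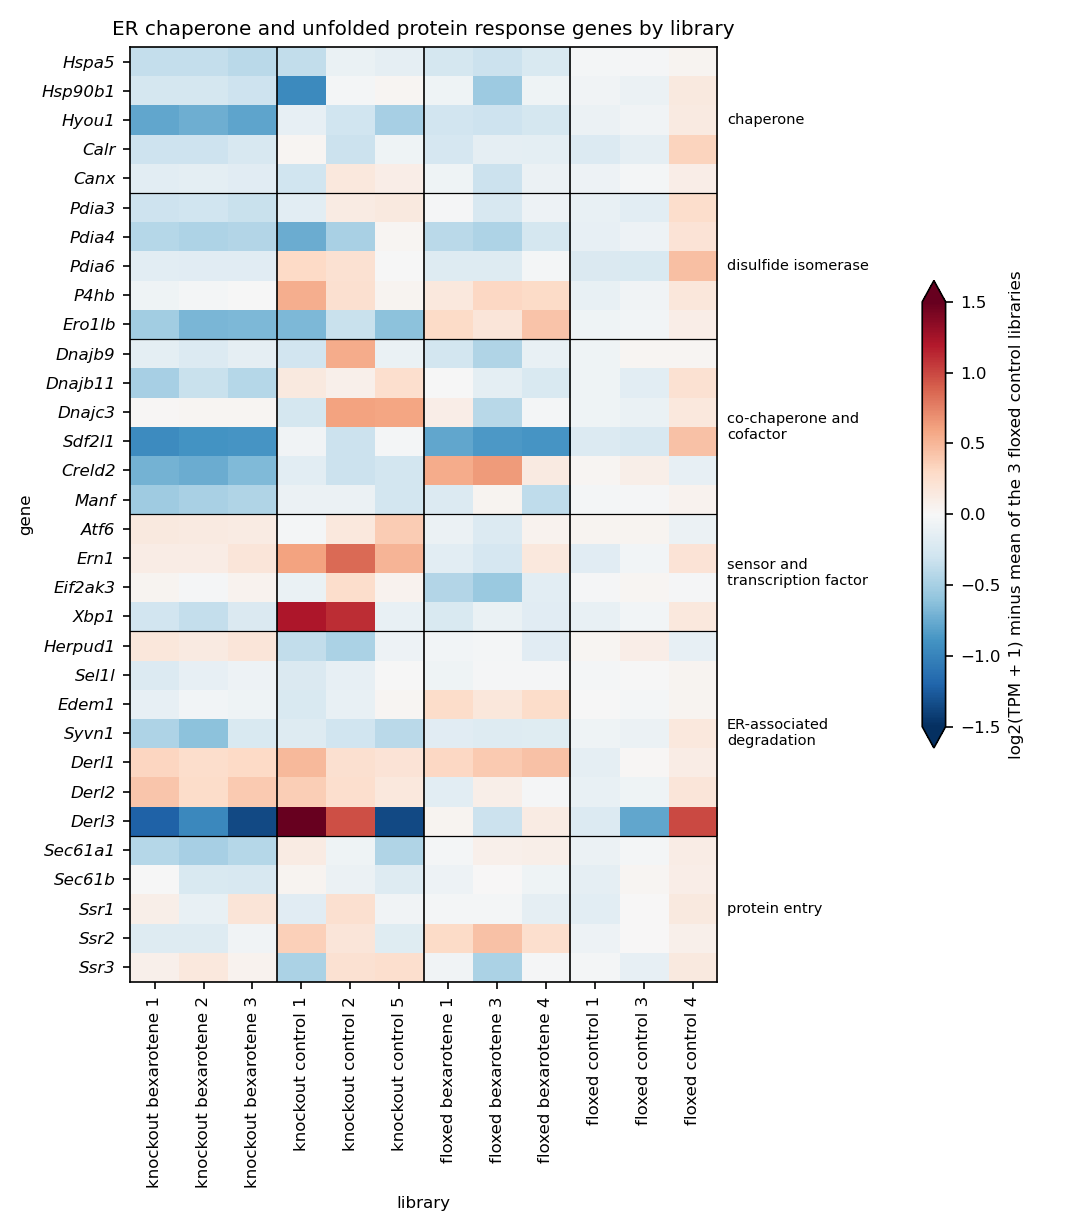
Each member's log2(TPM + 1) in each of the 12 libraries minus its mean over the 3 floxed control libraries, by role, with groups separated by vertical lines. Knockout bexarotene libraries are blue for Hyou1, Sdf2l1, Creld2 and Ero1lb, and knockout controls 1 and 2 are red for Xbp1 and Derl3. Floxed control 4 is the reddest of its group for members such as Calr, Pdia6 and Sdf2l1, but the lowest of it for Creld2, Herpud1 and Atf6. The colours end at 1.5 in either direction, which Derl3 exceeded in knockout control 1.

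The summed level of the 32 members was lowest in knockout bexarotene libraries, at 3107 to 3158 TPM, against 3457 to 3648 TPM in knockout controls. It was 3399 to 3460 TPM in floxed bexarotene libraries, against 3341, 3429 and 3950 TPM in floxed controls. The ranges did not overlap in knockout mice and did overlap in floxed mice, where floxed control 4 stood apart above the rest. By role, the sum of the 6 co-chaperones and cofactors was 271 to 284 TPM in knockout bexarotene libraries, against 360 to 389 TPM in knockout controls. The sum for the 7 degradation components, which Herpud1 dominates, ran the other way, at 590 to 616 TPM in knockout bexarotene libraries, against 461 to 536 TPM in knockout controls.

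Whether bexarotene moved the set was first asked in floxed mice. No member passed the test there (limma, Benjamini-Hochberg adjusted p under 0.05), where 2.12% of all tested genes were called. At an unadjusted p under 0.05, 5 of the 32 members passed, about the 15.4% seen over all genes. Levels were nevertheless on the low side: 25 of 32 members had a log2 fold change under 0, with a median of -0.18, against 41.3% of all tested genes and a median of 0.06. Without floxed control 4 the number under 0 was 19 and the median -0.01. The libraries of both groups did not overlap for 7 members that were lower with bexarotene and 5 that were higher, where 9.59% and 25.7% of all genes did so.

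All 5 chaperones had a fold change under 0 in floxed mice, with a median of -0.26, and none passed. Hspa5 had 263, 251 and 269 TPM in floxed bexarotene libraries, against 309, 312 and 325 TPM in floxed controls. The groups did not overlap, and the log2 fold change was -0.28 ± 0.12 (SE, limma adjusted p = 0.314). Hyou1, a large HSP70 relative that serves as nucleotide exchange factor of BiP, had 58.5, 57.5 and 59.4 TPM in floxed bexarotene libraries, against 67.7, 68.9 and 79.1 TPM in floxed controls. Here too every treated library lay under every control, at -0.33 ± 0.14 (SE, limma adjusted p = 0.318). Calr, the lectin chaperone Canx and Hsp90b1 overlapped between the groups.

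Sdf2l1, a lumenal partner of the BiP co-chaperones, stood lowest relative to its controls. It had 20.2, 19.1 and 18.8 TPM in floxed bexarotene libraries, against 30.7, 29.9 and 48.3 TPM in floxed controls. The treated libraries were tightly grouped, all under the controls, and the ratio of treated to control means was 0.493. The log2 fold change was -0.95 ± 0.20 (SE, limma adjusted p = 0.0545), which missed the threshold, and the gene passed under 7 of 15 other settings (adjusted p 0.00759 to 0.367). Without floxed control 4, whose level was far above the other controls, the log2 fold change was -0.62 and the adjusted p 0.367.

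Creld2, a secreted EGF-domain protein and disulfide isomerase of the ER stress response, stood on the other side. It had 66.1, 70.4 and 49.2 TPM in floxed bexarotene libraries, against 45.8, 47.8 and 41.0 TPM in floxed controls. The groups did not overlap, and the log2 fold change was 0.47 ± 0.17 (SE, limma adjusted p = 0.231). Derl1, a channel component of ER-associated degradation, had 41.6, 43.8 and 45.2 TPM in floxed bexarotene libraries, against 30.2, 33.7 and 36.0 TPM in floxed controls. Its fold change was 0.35 ± 0.13 on the log2 scale (SE, limma adjusted p = 0.258), again without overlap. Ero1lb, the oxidase that recharges disulfide isomerases, Edem1, a mannosidase-like factor of degradation, and Ssr2, a subunit of the translocon-associated TRAP complex, were the other members whose treated libraries all lay above the controls, with adjusted p between 0.422 and 0.441 in limma. Pdia4, Dnajb9 (the co-chaperone ERdj4), Eif2ak3 and Syvn1 (the ubiquitin ligase HRD1) lay under their controls without overlap, with adjusted p between 0.369 and 0.632.

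**Figure D2:**
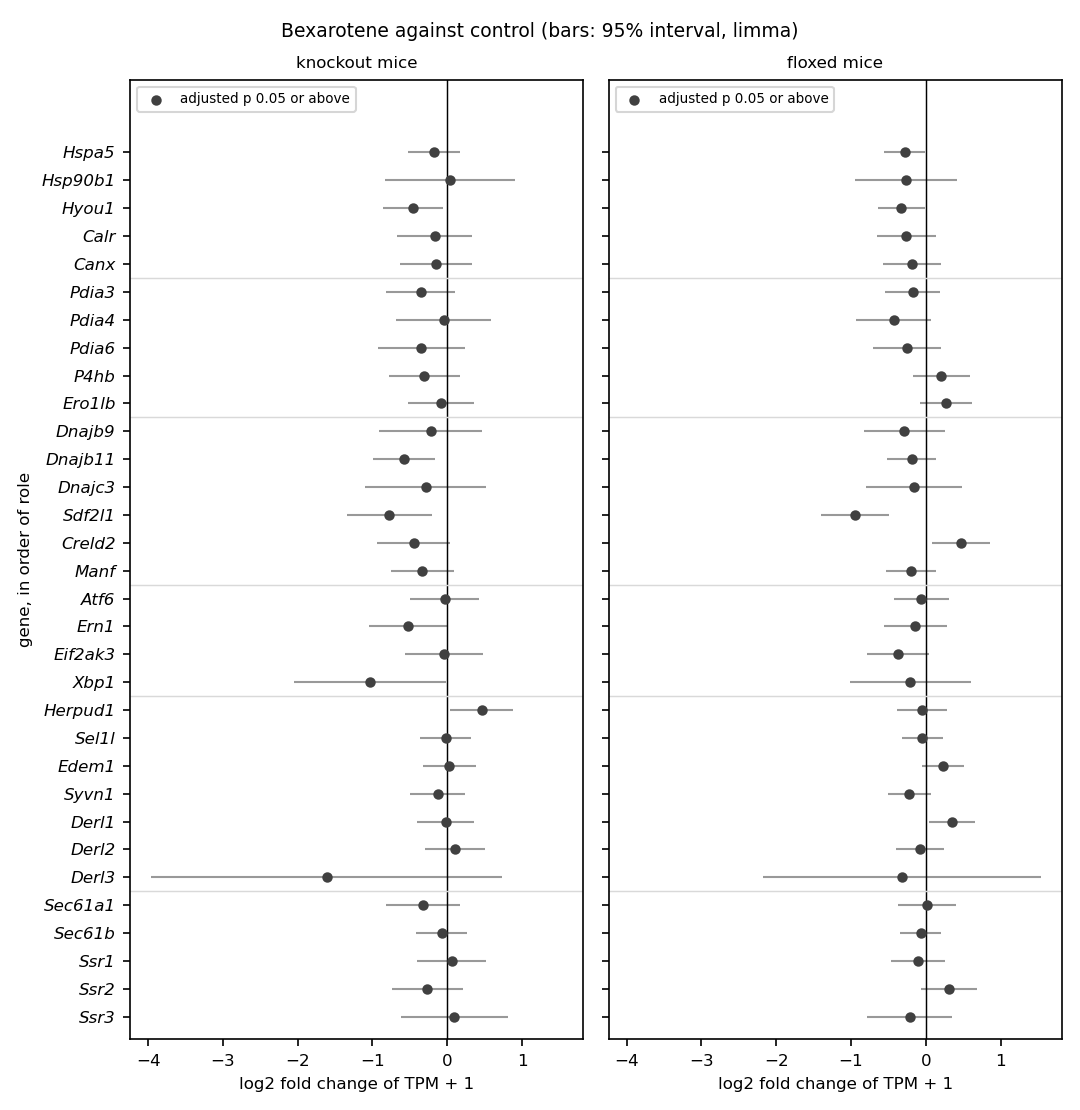
Log2 fold changes of TPM + 1, bexarotene against control, for the 32 members in knockout mice (left) and floxed mice (right), with 95% intervals from limma. All points are grey, as no member passed; most lie left of 0 in both panels, Sdf2l1 at -0.78 and -0.95, while Creld2 lies at -0.45 in knockout mice and 0.47 in floxed mice.

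In knockout mice the same comparison sets 1 treated sample against 3 controls. No member passed (limma, adjusted p under 0.05), where 0.517% of all tested genes were called, and 5 of 32 members had an unadjusted p under 0.05, against 9.17% of all genes. Of the 32 members, 26 had a log2 fold change under 0, with a median of -0.17, against 36.7% of all genes and a median of 0.10. Across the other settings 23 to 31 members were under 0. The background moved with the scaling: the median of all genes was -0.03 with quantile normalization and -0.01 with GC and length trends removed, where the members' medians were -0.23 and -0.30. In 10 members all treated libraries lay under all controls, where 8.5% of all genes did so, and in 1 member, Herpud1, they lay above, where 20% of all genes did so.

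All 6 co-chaperones and cofactors had a fold change under 0 in knockout mice, with a median of -0.39. Sdf2l1 had 17.9, 18.6 and 18.7 TPM in knockout bexarotene libraries, against 34.2, 28.1 and 34.6 TPM in knockout controls. No library of one group reached the other, and the ratio of treated to control means was 0.569. The log2 fold change was -0.78 ± 0.25 (SE, limma adjusted p = 0.330). Dnajb11, the BiP co-chaperone ERdj3, had 36.4, 40.8 and 38.1 TPM in knockout bexarotene libraries, against 57.2, 54.6 and 61.5 TPM in knockout controls, and its log2 fold change was -0.57 ± 0.18 (SE, limma adjusted p = 0.317). Creld2 had 27.1, 26.4 and 28.0 TPM in knockout bexarotene libraries, against 40.0, 35.7 and 36.8 TPM in knockout controls. Its treated libraries thus lay under the controls in knockout mice, at -0.45 ± 0.21 (SE, limma adjusted p = 0.6). Manf, a secreted survival factor that binds BiP, had 130, 135 and 138 TPM in knockout bexarotene libraries, against 177, 177 and 156 TPM in knockout controls.

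Among chaperones and isomerases the treated knockout libraries were also on the low side without a call. Hyou1 had 41.3, 42.8 and 41.0 TPM in knockout bexarotene libraries, against 65.7, 57.9 and 50.6 TPM in knockout controls, with a log2 fold change of -0.46 ± 0.18 (SE, limma adjusted p = 0.464). Pdia3, the isomerase that works with calnexin and calreticulin on glycoproteins, had 111, 112 and 110 TPM in knockout bexarotene libraries, against 124, 151 and 153 TPM in knockout controls. Pdia6 and P4hb likewise did not overlap between the groups. Hspa5 did overlap: knockout control 1, at 244.5 TPM, lay among the treated libraries at 238.4 to 245.4 TPM.

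Xbp1 depended on 1 library. It had 66.8, 63.7 and 70.3 TPM in knockout bexarotene libraries, against 192, 178 and 76.1 TPM in knockout controls. Knockout controls 1 and 2 were far above every other library of the study, and knockout control 5 was level with the floxed groups, which stood between 70.0 and 91.7 TPM. The log2 fold change was -1.03 ± 0.44 (SE, limma adjusted p = 0.543), and without knockout control 5 it was -1.45 ± 0.15 (SE, limma adjusted p = 0.00573). Derl3, a Derlin paralogue of low level, showed a like split. It had 0.64, 0.95 and 0.49 TPM in knockout bexarotene libraries, against 11.6, 6.43 and 0.49 TPM in knockout controls, with a log2 fold change of -1.61 (limma adjusted p = 0.735). Knockout control 5 is the control whose clock score was -1.96, against 1.18 and 0.90 in knockout controls 1 and 2. The score was 0.46 to 0.53 in knockout bexarotene libraries, where Xbp1 had 63.7 to 70.3 TPM. It was 1.04 to 1.88 in floxed bexarotene libraries, where Xbp1 had 70.0 to 76.4 TPM. In floxed controls it was -1.68 to -1.17, where Xbp1 had 75.6 to 91.7 TPM. The part of the clock score in these levels was not tested. Xbp1 and Derl3 are also high in plasma cells. The summed level of 9 plasma and B cell markers was 245 to 284 TPM in knockout bexarotene libraries, against 148, 141 and 71.3 TPM in knockout controls 1, 2 and 5. Most of this sum was Igkc, an immunoglobulin light chain, at 223 to 260 TPM in knockout bexarotene libraries, against 139, 128 and 63.4 TPM in knockout controls 1, 2 and 5. Among the knockout controls the sum was thus higher in the libraries with more Xbp1 and Derl3, while across the groups it was highest where both genes were low, and its part in their levels was not tested. None of the 9 markers was at 0 in all libraries, and 4 stayed under 1 TPM throughout. In bulk RNA, fewer cells of a type and less RNA per cell cannot be told apart.

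Of the sensors, Ern1 had 7.94, 7.94 and 8.43 TPM in knockout bexarotene libraries, against 11.6, 14.0 and 10.8 TPM in knockout controls. All treated libraries were lower, at -0.52 ± 0.23 on the log2 scale (SE, limma adjusted p = 0.557). Atf6 and Eif2ak3 overlapped. Herpud1 had 406, 396 and 409 TPM in knockout bexarotene libraries, against 280, 261 and 343 TPM in knockout controls. It was the member with the highest positive fold change in knockout mice, at 0.46 ± 0.18 (SE, limma adjusted p = 0.489), and its mean was 37.0% higher. The other degradation genes overlapped, and so did all 5 entry components.

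**Figure D3:**
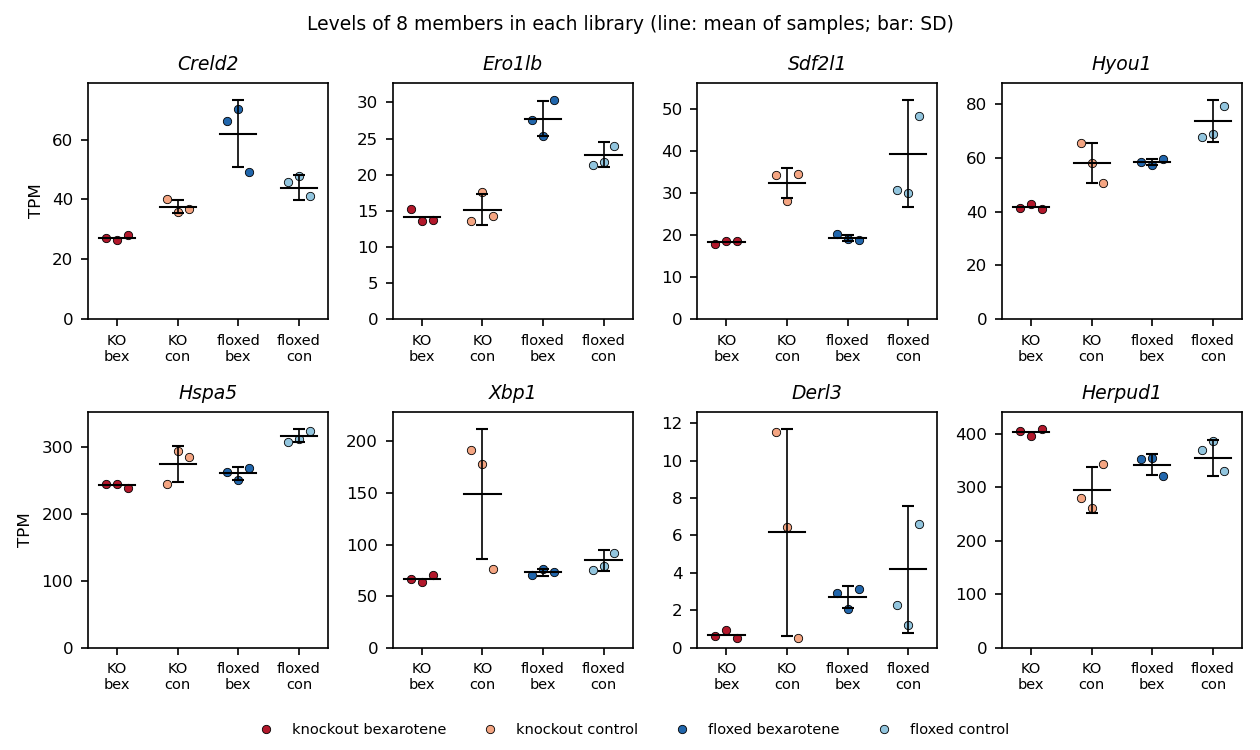
TPM of 8 members in each library, with the mean of the samples as a line and the SD as a bar where a group has more than 1 sample. Sdf2l1 lies lower in both bexarotene groups, Creld2 lies at 49.2 to 70.4 TPM in floxed bexarotene libraries and 26.4 to 28.0 TPM in knockout bexarotene libraries, and Xbp1 and Derl3 split the knockout controls.

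Whether the bexarotene effect differed between the genotypes was tested as knockout minus floxed. No member passed (limma, adjusted p under 0.05), where 0.2% of all genes were called; 1 member, Creld2, had an unadjusted p under 0.05, against 9.34% of all genes. For Creld2 the difference was -0.92 on the log2 scale (limma adjusted p = 0.342, unadjusted p = 0.00906). With all 12 libraries entered as separate samples, which counts near-identical libraries as independent, it was -0.89 with an adjusted p of 0.0160. The difference for Sdf2l1, whose level was lower with bexarotene in both genotypes, was 0.17 (95% interval -0.55 to 0.90; limma adjusted p = 0.9). Without knockout control 5 the difference for Xbp1 was -1.25 ± 0.18 (SE, limma adjusted p = 0.0250), against -0.83 with it (adjusted p = 0.719).

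Under bexarotene, knockout was then compared with floxed. Creld2 fell, the 1 member called of 32, where 1.93% of all tested genes were called and 1.25% were called lower. It had 27.1, 26.4 and 28.0 TPM in knockout bexarotene libraries, against 66.1, 70.4 and 49.2 TPM in floxed bexarotene libraries. The groups lay far apart, the ratio of knockout to floxed means was 0.439, and the log2 fold change was -1.14 ± 0.21 (SE, 95% interval -1.63 to -0.65, limma adjusted p = 0.0367). The call held in 9 of 15 other settings (limma adjusted p 0.000109 to 0.132). It was lost when only the compared groups were fitted (0.104) and without knockout control 2 (0.0699), floxed controls 1 and 3 or floxed control 4. These settings leave both compared groups as they were, so the fold change could not move. The same is true of some settings that kept the call: no filter, at least 5 TPM in 3 libraries, and without knockout control 1 or 5. Another that kept it, 12 libraries as samples, counts near-identical libraries as independent. The call was also lost without floxed bexarotene 1 (0.132) or floxed bexarotene 3 (0.111). The log2 fold changes there were -1.09 and -1.04. The macrophage marker sum was 61.7 to 71.1 TPM in knockout bexarotene libraries. In floxed bexarotene libraries 1, 3 and 4 it was 17.2, 21.0 and 63.1 TPM. The plasma and B cell marker sum was 245 to 284 TPM in knockout bexarotene libraries, against 51.3, 69.6 and 212 TPM in these floxed libraries. The clock score was 0.46 to 0.53, against 1.04 to 1.88. The part of these quantities in the Creld2 difference was not tested.

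Ero1lb came closest behind. It had 15.3, 13.5 and 13.7 TPM in knockout bexarotene libraries, against 27.5, 25.4 and 30.3 TPM in floxed bexarotene libraries. The ratio of knockout to floxed means was 0.511 without overlap, and the log2 fold change was -0.92 ± 0.19 (SE, limma adjusted p = 0.0567), called in 7 of 15 other settings (adjusted p 0.000256 to 0.177). At an unadjusted p under 0.05 the count was 4 of 32 members, against 11.8% of all genes. Fold changes lay under 0 for 23 of 32 members, with a median of -0.10, against 44.6% of all genes and a median of 0.04. The libraries did not overlap for 15 members on the lower side and 5 on the higher side, where 19.2% and 23.2% of all genes did so.

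All 5 chaperones and all 5 disulfide isomerases had a fold change under 0 in knockout against floxed mice under bexarotene. Over all genes 44.6% did so. Some of these fold changes were close to 0: on the log2 scale the chaperones ran from -0.48 to -0.0026 and the isomerases from -0.92 to -0.032. Hyou1 had 41.3, 42.8 and 41.0 TPM in knockout bexarotene libraries, against 58.5, 57.5 and 59.4 TPM in floxed bexarotene libraries, and its log2 fold change was -0.48 ± 0.18 (SE, limma adjusted p = 0.315). Sec61a1, the pore of the translocation channel, had 50.5, 47.8 and 50.3 TPM in knockout bexarotene libraries, against 66.9, 71.9 and 72.1 TPM in floxed bexarotene libraries. It did not overlap, at -0.50 ± 0.22 on the log2 scale (SE, limma adjusted p = 0.423). Ssr2 had 63.5, 63.2 and 69.9 TPM in knockout bexarotene libraries, against 89.0, 98.7 and 86.7 TPM in floxed bexarotene libraries, with an adjusted p of 0.436. On the higher side stood Derl2, a Derlin of the degradation channel, with 80.1, 72.7 and 78.8 TPM in knockout bexarotene libraries, against 53.9, 63.9 and 59.2 TPM in floxed bexarotene libraries (log2 fold change 0.39 ± 0.18 SE, limma adjusted p = 0.448). Exons of Derl2 share 231 bases with Mis12 on the other strand, which averaged 4.66 TPM, and whether the authors' counting used strand is not stated in the labels. The PERK gene Eif2ak3 was also higher without overlap, at 3.05, 2.90 and 3.08 TPM in knockout bexarotene libraries, against 1.92, 1.69 and 2.54 TPM in floxed bexarotene libraries (limma adjusted p = 0.588).

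**Figure D4:**
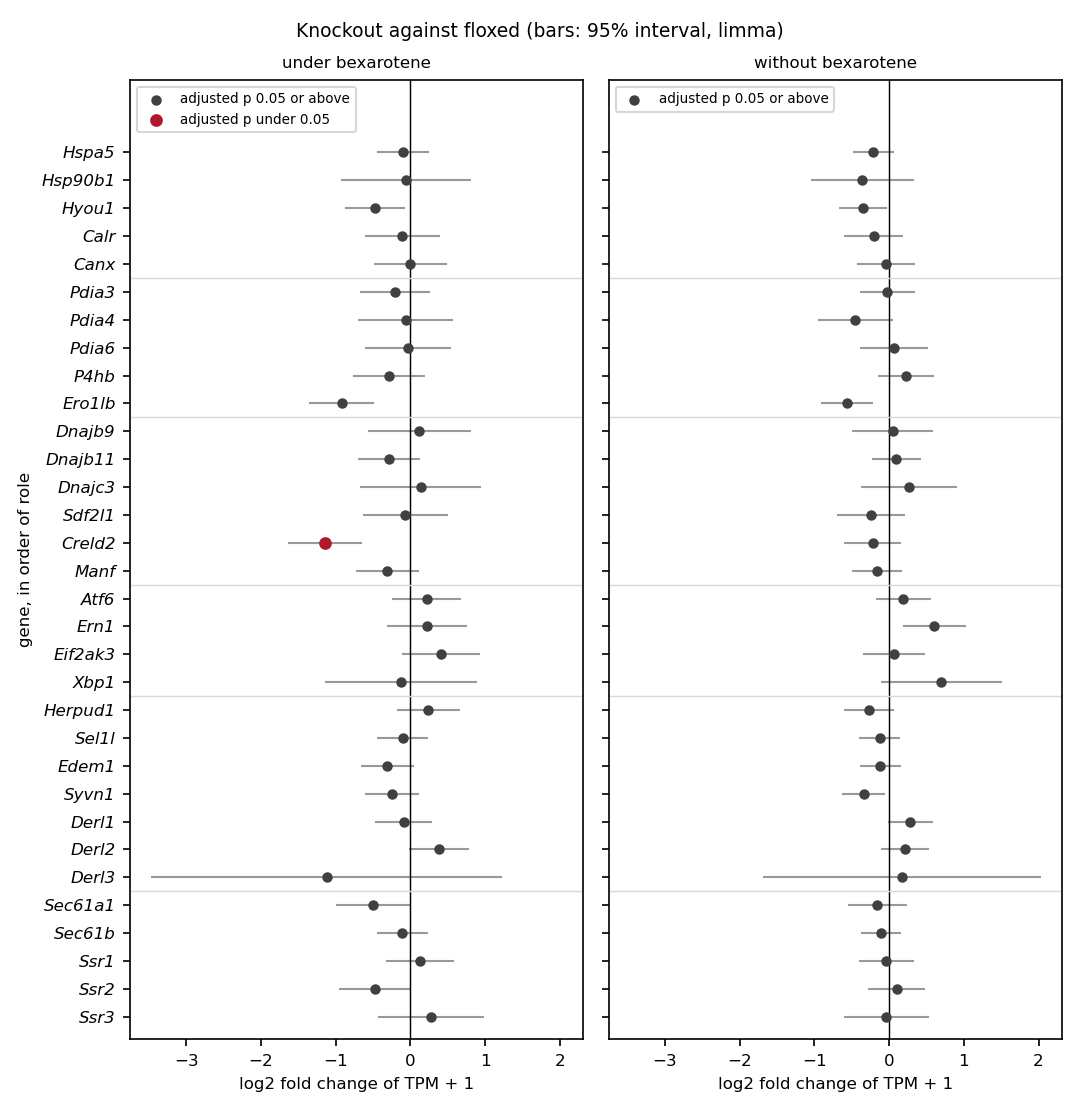
Log2 fold changes of TPM + 1, knockout against floxed, for the 32 members under bexarotene (left) and without it (right), with 95% intervals from limma. Creld2 under bexarotene, at -1.14, is the red point that passed; Ero1lb lies left of 0 in both panels, at -0.92 and -0.56, and Ern1 lies at 0.60 without bexarotene.

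Without bexarotene no member passed between knockout and floxed mice (limma, adjusted p under 0.05), where 3.76% of all tested genes were called. At an unadjusted p under 0.05 the count was 4 of 32 members, against 17% of all genes. Fold changes lay on both sides of 0, with 13 members above and 19 under it, and the median was -0.04, against 0.00 over all genes. This balance depended on the floxed controls: without floxed control 4 there were 13 members under 0 and the median was 0.07, and without floxed controls 1 and 3 there were 22 under 0 and the median was -0.15. Without overlap stood 6 members on the lower side and 2 on the higher side, where 11.1% and 14.2% of all genes did so.

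Ero1lb had 13.6, 17.6 and 14.3 TPM in knockout controls, against 21.3, 21.7 and 24.0 TPM in floxed controls. Every knockout library was lower and the ratio of means was 0.665, but the log2 fold change of -0.56 ± 0.15 missed the threshold (SE, limma adjusted p = 0.0884), with calls in 3 of 15 other settings (adjusted p 0.00945 to 0.502). All 4 sensors and transcription factors had a fold change above 0, with a median of 0.40. Ern1 had 11.6, 14.0 and 10.8 TPM in knockout controls, against 6.39, 7.06 and 8.54 TPM in floxed controls. The groups did not overlap, and the log2 fold change was 0.60 ± 0.18 (SE, limma adjusted p = 0.132). For Xbp1 it was 0.70 with an adjusted p of 0.367, and 1.12 ± 0.12 without knockout control 5 (SE, limma adjusted p = 0.00318). Without that library Pdia4, an isomerase of several thioredoxin domains, also passed, at an adjusted p of 0.0484. All 5 chaperones had a fold change under 0, with a median of -0.21; Hyou1, at 65.7, 57.9 and 50.6 TPM in knockout controls, against 67.7, 68.9 and 79.1 TPM in floxed controls, did not overlap (limma adjusted p = 0.257). Syvn1 had 27.0, 25.1 and 23.3 TPM in knockout controls, against 29.6, 29.2 and 34.8 TPM in floxed controls (limma adjusted p = 0.219). Exons of Syvn1 share 91 bases with Mrpl49 on the other strand, which averaged 15.8 TPM.

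Base composition stood apart in a pair of libraries, and members differed there in both directions. The slope of log2 levels on GC content was taken over all genes, relative to the mean of all libraries. Per 10% GC it was 0.337 in knockout control 1 and 0.199 in floxed bexarotene 3, against -0.138 to 0.0313 in the other libraries. It was -0.138 to -0.0669 in knockout bexarotene libraries and -0.113 and -0.134 in knockout controls 2 and 5. Floxed controls had -0.0324 to 0.00533, and floxed bexarotene 1 and 4 had 0.00478 and 0.0313. The knockout and floxed bexarotene ranges thus did not overlap. Knockout control 1 and floxed bexarotene 3 both lay under all the others for 5 of the 32 members (Hsp90b1, Canx, Dnajb9, Dnajc3 and Ssr3). They lay above all the others for 2 (P4hb and Ssr2). The share of all tested genes that did so was not computed. Whether these counts are particular to the members is therefore unknown. The part of base composition in these levels was not tested. Hsp90b1 was at 114 TPM in knockout control 1 and 151 TPM in floxed bexarotene 3, and between 178 and 246 TPM in the other libraries. Ssr3, a TRAP subunit, was at 51.4 TPM and 51.6 TPM in those libraries and between 66.0 and 86.0 TPM elsewhere. Dnajc3, the BiP co-chaperone p58IPK, was at 30.7 TPM and 27.5 TPM in them and between 34.5 and 56.6 TPM elsewhere. P4hb, in contrast, was at 863 TPM and 734 TPM in them and between 547 and 724 TPM elsewhere.

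Genes of neighbouring steps were read from wider lists. In COPII-coated ER exit, Sar1b, the GTPase that starts coat assembly, rose with bexarotene in floxed mice, the 1 called of 16 tested, where 2.12% of all genes were called. Of the 16 genes, 15 had a fold change above 0 there, against 58.6% of all genes. The list lay differently in the other comparisons: 9 of 16 were under 0 with bexarotene in knockout mice, 13 of 16 were under 0 in knockout against floxed mice under bexarotene, and 13 of 16 were above 0 without it. Sar1b had 289, 282 and 296 TPM in floxed bexarotene libraries, against 171, 182 and 172 TPM in floxed controls (log2 fold change 0.73 ± 0.12 SE, limma adjusted p = 0.0208). That call was lost under 6 of 15 settings (adjusted p up to 0.212). Among 14 further sensors and their regulators, Creb3l3, an ER-membrane transcription factor of liver, rose with bexarotene in floxed mice to 312, 306 and 321 TPM, against 192, 184 and 171 TPM in floxed controls (0.80 ± 0.15 SE, limma adjusted p = 0.0366). Txnip, a thioredoxin-binding protein linked to ER stress, rose there as well (2.16 ± 0.38 SE, limma adjusted p = 0.0292). Its level was also higher with bexarotene in knockout mice, where it was not called. It had 92.6, 102 and 98.2 TPM in knockout bexarotene libraries, against 16.9, 22.4 and 16.4 TPM in knockout controls. Creb3l3 and Txnip were the 2 called of 14 with bexarotene in floxed mice, where 2.12% of all genes were called. Both calls were lost under several settings, 7 for Creb3l3 and 5 for Txnip.

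Between genotypes, 1.93% of all tested genes were called under bexarotene and 3.76% without it. In the PERK and ATF4 branch, 1 of 13 tested genes was called in each of these comparisons. This was Asns, the asparagine synthetase and a known ATF4 target, which had 27.5, 27.7 and 28.1 TPM in knockout bexarotene libraries, against 0.50, 2.09 and 1.99 TPM in floxed bexarotene libraries (3.58 ± 0.45 SE, limma adjusted p = 0.00690). Without bexarotene it had 35.1, 30.7 and 56.0 TPM in knockout controls, against 3.21, 3.52 and 3.85 TPM in floxed controls (3.13 ± 0.35 SE, limma adjusted p = 0.00304), and both calls held in all 15 other settings. Atf4 itself had 28.1, 26.7 and 27.0 TPM in knockout bexarotene libraries, against 22.3, 19.2 and 19.1 TPM in floxed bexarotene libraries. Without bexarotene Atf4 had 39.6, 44.3 and 38.3 TPM in knockout controls, against 28.3, 29.7 and 21.7 TPM in floxed controls. It did not pass in either comparison. In N-glycosylation no gene of 15 passed in any comparison (limma), with at most 1 at an unadjusted p under 0.05, and 14 of 15 had a fold change under 0 in knockout against floxed mice under bexarotene, against 44.6% of all genes. The median of the 15 was -0.17, against 0.04 over all genes, and 8 stood without overlap on the lower side, where 19.2% of all genes did so. Of 20 tested other ER folding factors, 20 other degradation factors and 18 other entry and signal peptidase genes, none passed in any comparison. At an unadjusted p under 0.05 in limma, their counts in one comparison reached 3, 4 and 1. Over all genes, 9.17% to 17% had such a p, depending on the comparison. Among 18 cytosolic and mitochondrial chaperones, 1 was called between genotypes under bexarotene, where 1.93% of all genes were called. This was Hspb1, the small heat shock protein HSP27. It fell to 2.57, 2.38 and 2.17 TPM in knockout bexarotene libraries, against 51.4, 49.6 and 22.3 TPM in floxed bexarotene libraries. The log2 fold change was -3.55 ± 0.56 (SE, limma adjusted p = 0.0180). That call was lost in 3 of 15 settings (adjusted p up to 0.0577).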

How the data were processed

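Per the labels' protocols, TRIzol extraction and DNase I treatment preceded an Illumina stranded mRNA library kit. The reads were handled with fastp, HISAT2 and StringTie, per the submitters' processing notes; neither source names a version or a genome build. Per gene, the authors deposited TPM, and its depth is unknown, so no count test was run.

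The columns of the deposited table carry other numbers than the sample titles and were tied to groups only. Pairs of libraries within a group whose spread beyond counting noise was under 0.1 on the log2 scale (4 of 12 pairs, 0.0391 to 0.0674, against 0.163 to 0.475 for the other 8) were averaged, which gave 9 samples. Genes that reached 1 TPM in 3 or more libraries were fitted as log2(TPM + 1) with limma 3.58.1 in R 4.3.3, with all 4 groups in one model, a trended prior, 5 residual degrees of freedom and Benjamini-Hochberg adjustment over 11018 genes, and called at an adjusted p under 0.05. A fold change on this scale understates the change of low genes. The script was tested on simulated data. Symbols were found for 21810 of 26748 identifiers.

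The members and all lists were chosen with earlier results of these data known. Members were named in the text where they passed, where the groups did not overlap or by role, and genes of other lists where called or highest in TPM. Promoters came from RefSeq on GRCm38.p6, which may differ from the build of the files. Alternatives were 12 libraries as samples, a pseudocount of 0.1, no filter, at least 5 TPM in 3 libraries, quantile normalization, removal of GC and length trends, the compared groups alone, and leaving out each sample. Figures were drawn with matplotlib 3.10.9.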

Additional observations from a re-analysis of the deposited data

How the results depend on the processing

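Depth is unknown from TPM, and the treated knockout group rests on 1 sample. Of 2363 fold changes of members under the other settings, 2224 kept direction and side of the threshold. A further 37 passed where they had not, 6 no longer passed, and 96 uncalled ones changed sign. None that was called changed sign. Many of these signs were fixed in advance. A change of filter, the compared groups alone and leaving out a sample outside the compared groups cannot move a fold change.

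With 12 libraries as samples, which counts near-identical libraries as independent, 7 members were called for bexarotene in knockout mice, 3 for bexarotene in floxed mice, 7 for knockout against floxed under bexarotene, 2 without it and 1 for the difference of effects, against 0, 0, 1, 0 and 0 as reported. For all genes the same setting gave 1105, 1062, 1589, 1302 and 651 calls, against 57, 234, 213, 414 and 22. For bexarotene in floxed mice 1 member was called with at least 5 TPM, with quantile normalization, with GC and length trends removed, and with the compared groups alone. In that order, 218, 211, 320 and 614 of all genes were called. For knockout against floxed under bexarotene 2 were called with no filter, with at least 5 TPM, with quantile normalization and with trends removed, and 0 with the compared groups alone. The counts over all genes were 1041, 171, 262, 304 and 263. Without bexarotene 1 was called with quantile normalization and with trends removed, where 442 and 597 of all genes were called. Leaving out each sample gave 0 to 1 members for bexarotene in knockout mice, 0 to 1 in floxed mice, 0 to 2 for knockout against floxed under bexarotene, 0 to 2 without it and 0 to 1 for the difference.

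For all genes, no filter gave 875, 140, 1041, 231 and 689 calls in the same order, and the compared groups alone gave 6, 614, 263 and 158. Trends removed gave 36 for the difference. Leaving out samples gave 22 to 249, 43 to 553, 103 to 435, 100 to 761 and 6 to 210. For bexarotene in knockout mice the median of all genes was 0.127 with a pseudocount of 0.1, -0.0306 with quantile normalization (54.2% of genes under 0) and -0.0051 with trends removed (50.7% under 0), against 0.0976 as reported; the members' medians there were -0.17, -0.23 and -0.30. The causes were not tested. No paired analysis was possible because the columns carry no replicate numbers of the labels; the knockout bexarotene sample could not be left out, as it is the only one.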
